A study of Mus musculus with 24 samples.

Results

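Immediate early genes are genes whose transcription starts within minutes of a stimulus without new protein synthesis. The 10 described here are Fos, Fosb, Fosl1, Jun, Junb, Atf3, Egr1, Ier2, Ier3 and Dusp1, taken as the genes of the count table whose Entrez identifiers map to these mouse symbols. All 10 were found among the 24454 genes of the table, and all 10 passed the filter on low counts that left 16317 genes for testing.

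RNA was sequenced from the organ of Corti (OC), the sensory epithelium of the cochlea with its hair cells and supporting cells, dissected from C57BL/6N mouse pups of both sexes at postnatal day 5. In all groups the explants were first held for 24 h in medium with fetal calf serum and penicillin. For a further 6 or 24 h they received no drug (CTRL), 50 µM gentamicin (GM), 10 µM pioglitazone (PIO) or the combination (PIO+GM). Gentamicin is an aminoglycoside antibiotic toxic to hair cells, and pioglitazone activates the nuclear receptor PPAR-γ. Each of the 8 groups held 3 libraries, each of 6 pooled explants, and the sources do not say whether the libraries of a group came from separate pups, so p-values measure only the spread between libraries. No group was collected at the moment of drug addition or within the first hours, so early peaks of these genes were outside the sampled times, and each explant is a mixture of cell types.

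Most of these genes encode parts of one signalling output. Growth factors, calcium and stress reach them through MAP kinases and the factors SRF, TCF and CREB. Fos family proteins pair with Jun family proteins to form the AP-1 transcription factor, Atf3 is a stress-induced member of the same bZIP class, and Egr1 is a zinc finger transcription factor. Ier2 encodes a nuclear protein, Ier3 a stress-responsive regulator of cell survival, and Dusp1 a phosphatase that switches MAP kinases off again. Tissue dissection and serum are known inducers of the class, and in the cochlea members such as Fos and Atf3 are known to respond to trauma.

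The promoters of 4 members are shown because they carry the classical response elements of the class: Fos, Fosb and Atf3, which had the 3 most negative log2 fold changes of the members with a promoter entry between the culture times in CTRL, and Dusp1, which holds the complete cyclic AMP response element. Each is the 250 bases in front of the RefSeq start site in GRCm38.p6, 5′ to 3′ on the gene's strand, at chr12:85473640-85473889 (plus strand), chr7:19310046-19310295 (minus strand), chr1:191183334-191183583 (minus strand) and chr17:26508473-26508722 (minus strand). Capitals mark the core of the cyclic AMP response element (CRE; TGACG on either strand, written out in full as TGACGTCA in Dusp1), the EGR site GCGGGGGCG in Fosb and the TATA box TATAAA in Fos.
Fos: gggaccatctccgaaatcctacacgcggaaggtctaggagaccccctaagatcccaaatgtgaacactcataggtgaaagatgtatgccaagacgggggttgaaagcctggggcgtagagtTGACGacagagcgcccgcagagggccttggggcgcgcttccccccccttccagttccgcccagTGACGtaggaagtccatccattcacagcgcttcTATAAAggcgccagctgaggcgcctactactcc
Fosb: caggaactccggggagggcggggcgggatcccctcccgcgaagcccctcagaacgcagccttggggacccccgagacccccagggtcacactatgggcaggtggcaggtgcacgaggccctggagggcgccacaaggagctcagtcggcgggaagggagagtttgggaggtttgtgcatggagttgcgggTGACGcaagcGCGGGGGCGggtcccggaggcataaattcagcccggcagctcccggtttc
Atf3: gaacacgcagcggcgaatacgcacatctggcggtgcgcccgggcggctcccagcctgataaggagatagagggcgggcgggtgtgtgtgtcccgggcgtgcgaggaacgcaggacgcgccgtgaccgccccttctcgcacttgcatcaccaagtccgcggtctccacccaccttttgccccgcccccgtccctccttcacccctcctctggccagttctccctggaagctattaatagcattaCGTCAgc
Dusp1: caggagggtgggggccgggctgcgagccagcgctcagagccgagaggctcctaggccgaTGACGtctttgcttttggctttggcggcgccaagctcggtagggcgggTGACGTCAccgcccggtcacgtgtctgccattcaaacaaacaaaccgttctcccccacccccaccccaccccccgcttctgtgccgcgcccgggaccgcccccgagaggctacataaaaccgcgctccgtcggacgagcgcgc
The Fos promoter had the CRE core starting 129 and 66 bases before the start site and the TATA box 33 bases before it. In Fosb the CRE core began 60 bases and the EGR site 50 bases before the start, and in Atf3 the core lay on the reverse strand within 7 bases of it. The complete CRE of Dusp1 began 143 bases before the start, with a further core at 191. A promoter entry was found for 7 of the 10 members (Fosl1, Egr1 and Ier2 have none), and the CRE core was in 5 of these 7 (Fos, Fosb, Junb, Atf3 and Dusp1), compared with 17.8% of 32851 promoters of the same length. The complete CRE, which contains the core, was in 1.55% of all promoters, the EGR site in 2.57% and the TATA box in 12.4%. The AP-1 site TGANTCA was in 0 of the 7 and in 6.75% of all promoters, and the CArG box bound by SRF was in 0 of the 7 and in 1.47%, in this window and on both strands. The GC content of the 7 promoters was 54.4% to 68.8%, against a median of 52.4% over all promoters, and its part in these shares was not tested. These are matches of letters, and binding was not measured.

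In GRCm38.p6 the AP-1 genes lie at chr12:85473890-85477274 (Fos, plus strand), chr7:19302696-19310118 (Fosb, minus strand), chr19:5447698-5455938 (Fosl1, plus strand), chr4:95049036-95052222 (Jun, minus strand) and chr8:84976909-84978748 (Junb, minus strand), and Atf3 at chr1:191170296-191183333 (minus strand). The start site of the Fosb promoter entry is inside the span of the gene. Exons of Fosl1 share 1163 of their 2033 annotated bases (57.2%) with Ccdc85b on the other strand, and whether the counting used the strand is not stated in the sources used here. Ccdc85b had 56 to 216 counts in the 6-h libraries and 133 to 290 in the 24-h libraries, where Fosl1 had 10 to 404 and 2 to 21. Whether reads of Ccdc85b entered the counts of Fosl1 was not tested. Jun, Junb and Dusp1 share smaller stretches with other-strand genes (232 bases with Junos, 173 with Prdx2 and 11 with Ergic1).

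Library totals ranged from 7211357 to 15548856 counts, so that 3 counts correspond to 0.193 to 0.416 CPM, counts scaled to the library total (counting error only). The 12 hair cell and 12 supporting cell marker genes were all detected. At 6 h, 1 library stood apart from the rest for these genes. Replicate 3 of PIO+GM at 6 h had the lowest total, was the lowest of the 12 libraries at 6 h for 7 of the 10 members, and lay below its own group's mean for 10 of 10. The summed CPM of the 10 genes was 187 in this library and 296 to 606 in the other 6-h libraries. Its deviations from the mean of all libraries also had the most negative rank correlation with the GC content of the genes (Spearman's rho over genes -0.677, a description since genes are not independent replicates, with -0.578 in PIO replicate 2 and -0.487 in PIO+GM replicate 2, the next lowest). Its Schwann cell markers summed to 385 CPM, the lowest at 6 h, and on all other tested genes it was placed at 0.091 between the mean 6-h library (0) and the mean 24-h library (1), inside the range of the 6-h libraries (-0.234 to 0.329). Values without it are given beside the drug comparisons at 6 h that it bears on and beside counts over time that it moved by over 1.5 times. At 24 h, replicate 3 of PIO+GM was the lowest of the 12 libraries for 6 of the 10 members. Its summed CPM of 258 was inside the range of the other 24-h libraries. The part of these features in the results was not tested.

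**Figure D1:**
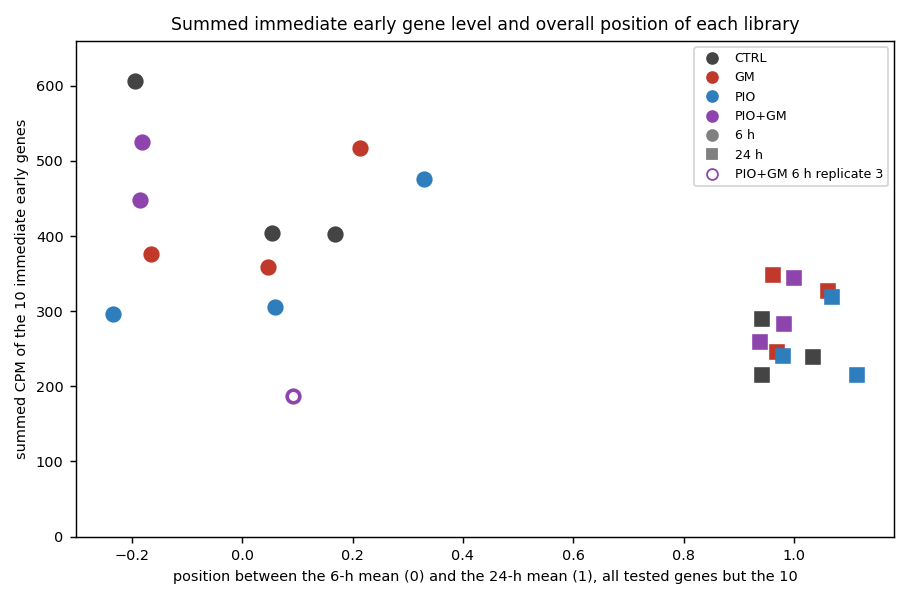
Summed CPM of the 10 immediate early genes (vertical axis) against the position of each library between the mean 6-h library (0) and the mean 24-h library (1), computed on all tested genes but the 10 (horizontal axis, no unit); circles are 6-h and squares 24-h libraries, coloured by treatment. The open circle, PIO+GM at 6 h replicate 3, has the lowest sum (187) although its position of 0.091 is among the 6-h libraries.

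Compared per length as RPKM (CPM divided by gene length), the 10 genes covered a wide range of levels. At 6 h the medians over 12 libraries were 56.7 for Ier3, 31.9 for Jun, 22.5 for Fos, 21.1 for Atf3, 18.0 for Ier2, 15.3 for Junb, 13.4 for Egr1, 9.68 for Dusp1, 7.25 for Fosl1 and 2.84 for Fosb. The ranges of all neighbours in this order overlapped. At 24 h Ier3 (42.0) and Jun (26.5) still had the highest median RPKM, followed by Ier2 (18.8), Junb (13.5), Fos (11.5), Atf3 (9.20), Dusp1 (8.37) and Egr1 (8.30). Fosb (0.697) and Fosl1 (0.292) were at the bottom, and the step from Egr1 to Fosb was the one place in the 24-h order where the ranges of neighbours did not overlap. Fos and Atf3 were thus below Ier2 and Junb at 24 h and above them at 6 h, and all 4 have overlapping ranges with their neighbours.

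**Figure D2:**
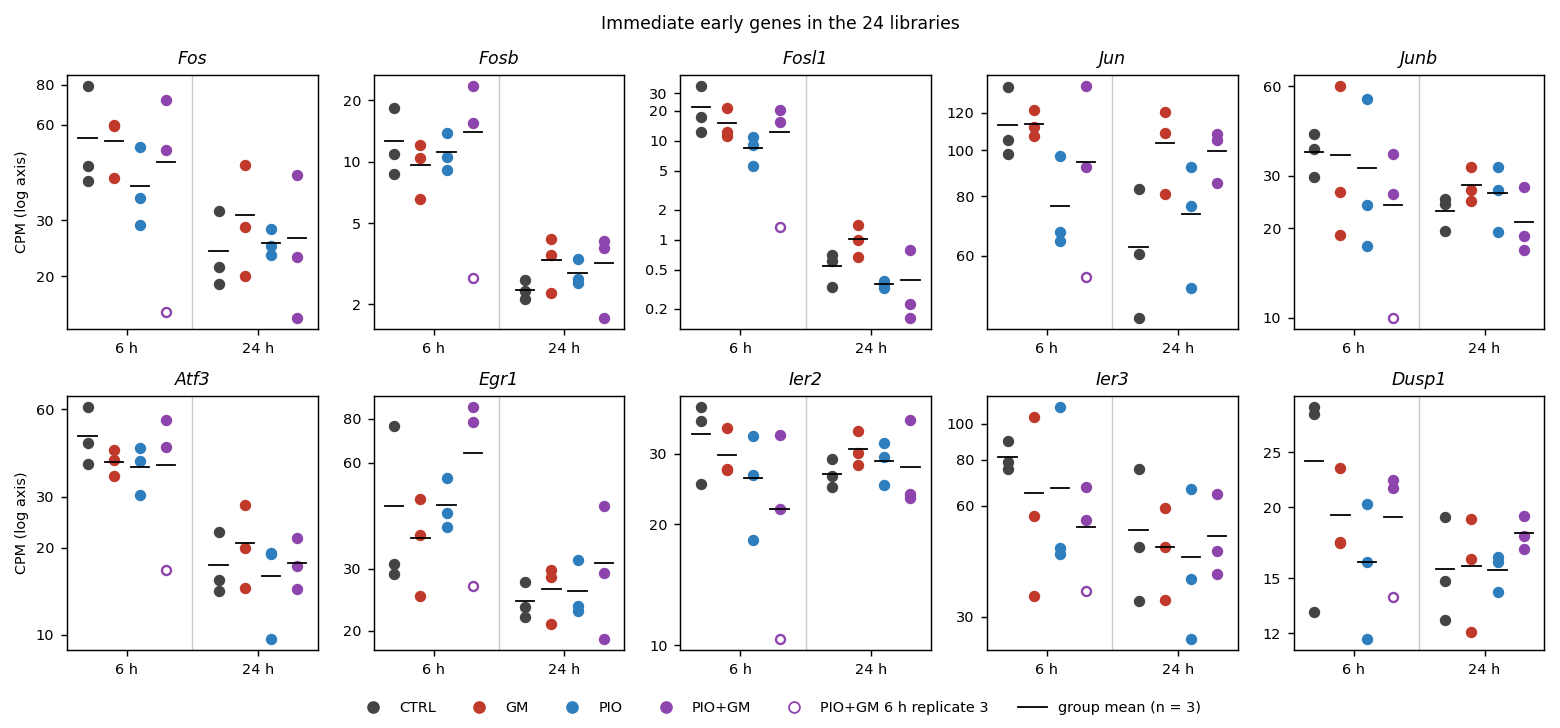
CPM of each of the 10 genes in the 24 libraries on a log axis, by culture time and treatment; points are libraries, lines the group means of 3, and the open symbol is PIO+GM at 6 h replicate 3. Fosl1 differs most between the times, with 1.35 to 35.6 CPM at 6 h and 0.163 to 1.40 CPM at 24 h. Over all treatments these ranges meet in PIO+GM at 6 h replicate 3, and within each treatment the Fosl1 libraries of the 2 times do not overlap.

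The 2 culture times were compared within each treatment, which asks whether immediate early gene transcripts differed between early and late culture. Between 6 and 24 h, Fosl1 and Fosb fell in all 4 treatments, Atf3 fell in 3, and Jun and Egr1 each fell in 1. The genes called were all lower at 24 h: 4 of 10 in CTRL, where 28% of all tested genes were called and 13.2% were called lower, 2 in GM (24.2%; 11.7% lower), 3 in PIO (29%; 15.8% lower) and 4 in PIO+GM (34.6%; 17% lower). The call is an adjusted p under 0.05 by edgeR's quasi-likelihood test with Benjamini-Hochberg adjustment over 16317 genes. Median log2 fold changes of the 10 genes were -0.87, -0.49, -0.61 and -0.49, and those of all tested genes lay between 0.01 and 0.03. Single libraries moved these medians: that of GM was -0.19 without its 6-h replicate 3, that of PIO -0.18 without its 6-h replicate 3, and that of PIO+GM -0.17 without its 6-h replicate 1 and -0.88 without its 6-h replicate 3. Leaving out replicate 3 of GM, or replicate 1 or 3 of PIO+GM, at 24 h also moved its group's median by more than 1.5 times. Libraries of the 2 times did not overlap, with 24 h lower, for 8 members in CTRL (22.3% of all genes), 3 in GM (22.2%), 5 in PIO (20.7%) and 1 in PIO+GM (20.7%). The low count in PIO+GM rested on its replicate 3 at 6 h. For Fos, Fosb, Atf3, Egr1 and Dusp1, replicates 1 and 2 at 6 h were above every PIO+GM library at 24 h, and replicate 3 was not. The share of all genes was not computed without that library. In bulk tissue, fewer cells of a type and less RNA per cell cannot be told apart.

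Fosl1, which encodes the Fos family protein Fra-1, showed the widest difference of the 10. In CTRL its libraries had 17.4, 35.6 and 12.4 CPM at 6 h and 0.703, 0.330 and 0.611 CPM at 24 h. In GM they had 11.3, 21.6 and 12.4 CPM at 6 h and 0.991, 0.675 and 1.40 CPM at 24 h. The 24-h libraries of both treatments were all far below every 6-h library of the same treatment. PIO libraries had 9.03, 10.8 and 5.49 CPM at 6 h and 0.385, 0.325 and 0.357 CPM at 24 h. PIO+GM libraries had 20.2, 15.6 and 1.35 CPM at 6 h and 0.794, 0.227 and 0.163 CPM at 24 h. Here too the times did not overlap, and the narrowest gap was set by PIO+GM replicate 3 at 6 h, with 10 counts. The 24-h levels rest on few reads, 20, 43, 16 and 17 counts summed over the 3 libraries of CTRL, GM, PIO and PIO+GM, against 775, 573, 281 and 443 at 6 h. Fitted log2 fold changes were -5.32 (SE 0.74) in CTRL, -3.87 (SE 0.67) in GM, -4.52 (SE 0.76) in PIO and -4.90 (SE 0.75) in PIO+GM, corresponding to 40.0-fold, 14.6-fold, 23.0-fold and 29.8-fold lower levels. Adjusted p-values by edgeR's quasi-likelihood test were 4.99e-05, 0.000434, 0.000375 and 0.000115. In PIO+GM the log2 fold change was -5.92 without replicate 1 at 24 h.

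Fosb, another partner of Jun proteins in AP-1, had the lowest level per length of the family at 6 h and also fell in all 4 treatments. CTRL libraries had 8.68, 18.3 and 10.9 CPM at 6 h and 2.11, 2.31 and 2.62 CPM at 24 h. GM libraries had 6.56, 12.0 and 10.5 CPM at 6 h and 3.47, 4.19 and 2.27 CPM at 24 h, and PIO libraries 13.9, 10.6 and 9.11 CPM and 3.34, 2.54 and 2.64 CPM. In these 3 treatments every 24-h library was below every 6-h library. PIO+GM libraries had 15.6, 23.5 and 2.70 CPM at 6 h and 4.10, 3.78 and 1.72 CPM at 24 h, and the times overlapped through replicate 3 at 6 h. The log2 fold changes of Fosb were -2.42 (SE 0.51) in CTRL, -1.55 (SE 0.49) in GM, -1.97 (SE 0.50) in PIO and -2.13 (SE 0.50) in PIO+GM, with adjusted p-values of 0.00181, 0.0277, 0.00687 and 0.00306 by edgeR's quasi-likelihood test. In PIO+GM the value was -1.53 without replicate 2 at 6 h. The call in GM was lost when GM at 6 h replicate 2 or 3, or GM at 24 h replicate 1 or 3, was left out (adjusted p up to 0.105).

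Fos itself, the founding member of the family, was lower at 24 h in the group means of all treatments but did not pass the test. In CTRL its libraries had 39.8, 79.3 and 44.4 CPM at 6 h and 32.0, 21.3 and 18.9 CPM at 24 h, without overlap. The log2 fold change was -1.18 (SE 0.44, adjusted p = 0.0524 by edgeR's quasi-likelihood test), close to the threshold, and replicate 2 at 6 h, the highest of all 24 libraries for Fos, carried part of it: without that library the value was -0.81 with an adjusted p of 0.266. Fos in CTRL passed under 8 of 10 other settings (adjusted p 0.0213 to 0.0498), among them the replicate block (0.0383). PIO+GM had 71.9, 49.8 and 15.4 CPM at 6 h and 41.5, 22.9 and 14.8 CPM at 24 h. Replicate 3 at 6 h was at the level of the lowest 24-h library, and the log2 fold change was -0.80 (adjusted p = 0.164). In GM and PIO the log2 fold changes of Fos were -0.78 (adjusted p = 0.202) and -0.60 (adjusted p = 0.318).

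Atf3, which encodes a bZIP factor induced by cellular stress and nerve injury, fell in CTRL, PIO and PIO+GM. CTRL libraries had 38.8, 61.1 and 46.0 CPM at 6 h and 22.6, 14.2 and 15.4 CPM at 24 h. PIO libraries had 30.3, 44.1 and 39.8 CPM at 6 h and 9.70, 19.2 and 19.1 CPM at 24 h. No library overlapped between times in these treatments. PIO+GM libraries had 44.4, 55.0 and 16.7 CPM at 6 h and 21.6, 17.3 and 14.4 CPM at 24 h, with replicate 3 at 6 h inside the 24-h range. Log2 fold changes were -1.49 (SE 0.35, adjusted p = 0.00375 by edgeR's quasi-likelihood test) in CTRL, -1.25 (SE 0.35, adjusted p = 0.0116) in PIO and -1.13 (SE 0.35, adjusted p = 0.0164) in PIO+GM. The calls were lost without PIO replicate 1 at 24 h (adjusted p = 0.0659), and in PIO+GM without replicate 2 at 6 h or replicates 2 or 3 at 24 h (adjusted p up to 0.124) or with only the libraries compared (adjusted p = 0.0578). In GM, Atf3 had 40.2, 35.3 and 43.3 CPM at 6 h and 28.1, 14.5 and 19.9 CPM at 24 h. These did not overlap either, and the log2 fold change of -0.93 (SE 0.34) had an adjusted p of 0.0539.

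The Jun genes, which encode the obligate partners of Fos proteins, differed less between the times. Jun fell in CTRL, from 105, 136 and 98.0 CPM at 6 h to 60.4, 83.1 and 44.5 CPM at 24 h, without overlap and with a log2 fold change of -0.85 (SE 0.28, adjusted p = 0.0306 by edgeR's quasi-likelihood test). This call was lost without CTRL replicate 2 at 6 h, or replicate 1 or 3 at 24 h, with adjusted p-values up to 0.144. In GM, PIO and PIO+GM the log2 fold changes of Jun were -0.14, -0.06 and 0.08, and its times overlapped. Jun in GM had 107, 112 and 121 CPM at 6 h and 109, 120 and 80.8 CPM at 24 h. The change of Jun over time was 0.71 higher on the log2 scale in GM than in CTRL (unadjusted p = 0.0889 by edgeR's quasi-likelihood test, adjusted p = 1) and 0.79 higher in PIO than in CTRL (unadjusted p = 0.0616, adjusted p = 0.898), so its fall was not shown to differ between treatments. Junb did not pass in any treatment. Its CTRL libraries had 29.7, 41.4 and 37.0 CPM at 6 h and 25.0, 19.5 and 24.1 CPM at 24 h, without overlap, and a log2 fold change of -0.66 (SE 0.43, adjusted p = 0.276). With only the libraries compared, Junb did pass in CTRL (-0.68, SE 0.17, adjusted p = 0.0272 by edgeR's quasi-likelihood test).

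Egr1, the zinc finger factor, passed the test in PIO+GM. Its libraries there had 78.3, 86.2 and 26.7 CPM at 6 h and 45.2, 29.2 and 19.0 CPM at 24 h, so that replicate 3 at 6 h was inside the 24-h range. The log2 fold change was -1.04 (SE 0.40, adjusted p = 0.0482 by edgeR's quasi-likelihood test), and this call was lost in 18 of the 24 fits that left out 1 library (adjusted p up to 0.215), without the filter on low counts (0.0707), with limma-voom (0.0611) and with only the libraries compared (0.11). In CTRL, Egr1 had 30.9, 76.1 and 29.0 CPM at 6 h and 27.6, 23.4 and 21.8 CPM at 24 h. The times did not overlap, but the difference came mostly from replicate 2 at 6 h: the log2 fold change of -0.90 (adjusted p = 0.0982) was -0.30 without that library (adjusted p = 0.646). In PIO, Egr1 had 39.4, 43.2 and 54.2 CPM at 6 h and 23.4, 31.7 and 22.7 CPM at 24 h. These did not overlap, and the log2 fold change of -0.81 (SE 0.40, adjusted p = 0.127) passed with only the libraries compared (adjusted p = 0.0432) and after removal of a GC trend without and with the replicate block (adjusted p = 0.0363 and 0.0207).

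Ier2, Ier3 and Dusp1 passed the test in no treatment. Ier2 was the member with the smallest difference in CTRL, with 25.2, 39.1 and 36.1 CPM at 6 h and 24.9, 29.0 and 26.3 CPM at 24 h. Its log2 fold changes were -0.32, 0.05, 0.14 and 0.34 in CTRL, GM, PIO and PIO+GM, and its times overlapped in all 4. Without PIO+GM replicate 1 at 6 h, Ier2 in PIO+GM was called higher at 24 h (0.76, adjusted p = 0.0428 by edgeR's quasi-likelihood test). Ier3, the most abundant member per length, had 78.7, 89.8 and 75.6 CPM at 6 h and 75.3, 33.1 and 46.5 CPM at 24 h in CTRL, with a log2 fold change of -0.66 (SE 0.43, adjusted p = 0.267 by edgeR's quasi-likelihood test). Ier3 varied widely among libraries, from 34.2 to 105 CPM in GM and from 44.4 to 111 CPM in PIO at 6 h. Dusp1 had 29.2, 30.0 and 13.1 CPM at 6 h and 19.2, 12.7 and 14.8 CPM at 24 h in CTRL, which overlapped through replicate 3 at 6 h. Its log2 fold change in CTRL was -0.63 (SE 0.27, adjusted p = 0.091), and -0.93 without that replicate (adjusted p = 0.0077). It also passed in CTRL after removal of a GC trend (-0.69, adjusted p = 0.0356, and 0.0411 with the replicate block).

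**Figure D3:**
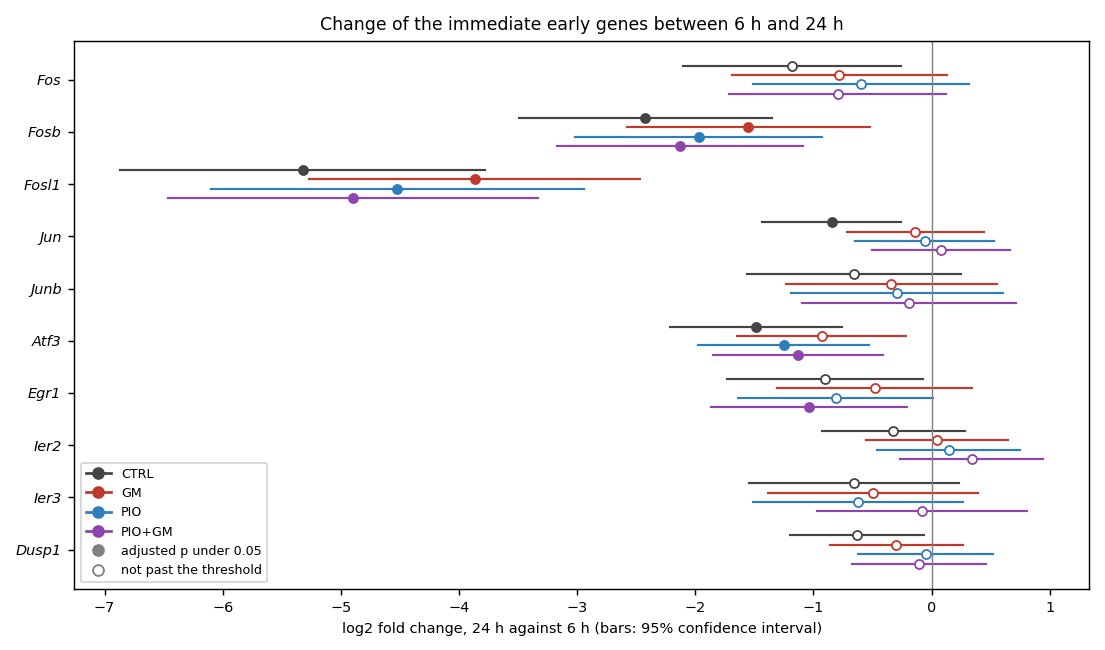
Log2 fold change of each gene at 24 h against 6 h (horizontal axis) in CTRL, GM, PIO and PIO+GM, with 95% confidence intervals; filled symbols have an adjusted p under 0.05 by edgeR's quasi-likelihood test. Fosl1 (-3.87 to -5.32) and Fosb (-1.55 to -2.42) are filled in all 4 treatments, Atf3 in 3, and Jun (CTRL) and Egr1 (PIO+GM) in 1 each.

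Without PIO+GM replicate 3 at 6 h, the standard error of Fos in CTRL was 0.36 in place of 0.44, and more members passed in 3 of the 4 treatments. Of all genes, 29.2%, 26%, 30.4% and 32.4% were called in CTRL, GM, PIO and PIO+GM. The counts of members were then 6 in CTRL (adding Fos, -1.18, adjusted p = 0.0184 by edgeR's quasi-likelihood test, and Egr1, -0.91, adjusted p = 0.0486), 3 in GM (adding Atf3, -0.93, adjusted p = 0.0169), 3 in PIO and 5 in PIO+GM (adding Fos, -1.20, adjusted p = 0.0245). In PIO+GM the log2 fold changes of the other called members were then -2.60 for Fosb, -5.41 for Fosl1, -1.49 for Atf3 and -1.41 for Egr1, each a wider difference than with the library. The 6-h libraries also differed among themselves within a group: CTRL replicate 2 was the highest of the 12 for 5 of the 10 members and had a summed CPM of 606, against 403 and 402 in the other CTRL libraries.

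Of the markers of other cell types, some Schwann cell and erythroid genes were called lower over time in all 4 treatments. The counts of markers called higher stand against 14.8%, 12.5%, 13.2% and 17.6% of all genes called higher in CTRL, GM, PIO and PIO+GM. Those of markers called lower stand against 13.2%, 11.7%, 15.8% and 17% of all genes called lower, in the same order. The summed CPM of 8 Schwann cell markers was 385 to 2829 at 6 h and 351 to 919 at 24 h, with 3, 6, 3 and 3 of the 8 called lower in CTRL, GM, PIO and PIO+GM and 1 (Sox10, 0.53) called higher in PIO+GM (6 lower and 0 higher there without replicate 3 at 6 h). Erythroid markers summed to 178 to 654 CPM at 6 h and 77.7 to 241 at 24 h, with 5, 5, 3 and 3 of 5 tested genes called lower. Macrophage markers had 55.8 to 148 CPM at 6 h and 73.3 to 231 at 24 h, with 1, 1, 3 and 4 of 10 called higher (1 in PIO+GM without replicate 3 at 6 h) and 1 (Cd14) called lower in PIO (-1.61) and PIO+GM (-1.65). The macrophage counts in CTRL and GM were below the share of all genes called higher. Mesenchyme markers summed to 3069 to 5668 CPM at 6 h and 3650 to 7508 at 24 h, with 3, 2, 2 and 3 of 8 called higher and 0, 0, 1 and 1 lower. Neuron markers had 185 to 465 and 206 to 329 CPM. Of these 8, 1 was called lower in CTRL, near the share of all genes, and 0 in PIO, below it. There were 2 called lower in GM and 2 in PIO+GM (4 in PIO+GM without its replicate 3 at 6 h). Hair cell markers had 480 to 892 and 614 to 1101 CPM, with 1 of 12 called higher in each treatment, below the share of all genes, and supporting cell markers 2174 to 6762 and 3609 to 5357 CPM, with 1, 1, 0 and 1 of 12 higher (0 in GM without that library), also below that share. Endothelial markers had 194 to 424 and 195 to 428 CPM, and 0 of 6 were called by edgeR's test. Within treatments, erythroid sums were lower at 24 h without overlap in all 4, Schwann cell sums in CTRL and GM, and supporting cell sums were higher without overlap in PIO+GM, while the other sums overlapped. No listed marker was at 0 throughout. The part of these markers in the fall of the immediate early genes was not tested.

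The drugs were compared at each time, which asks whether gentamicin or pioglitazone shifted these genes. With edgeR's quasi-likelihood test and Benjamini-Hochberg adjustment, 0 of the 10 members passed in any of the 8 comparisons, and DESeq2 and limma-voom also called 0. Among the other settings, 2 called a member in PIO+GM against GM at 6 h: Egr1 (1.11, adjusted p = 0.0441) after removal of a GC trend with the replicate block, and Ier2 (-0.86, adjusted p = 0.0364) without PIO+GM replicate 1. At 6 h the share of all genes called was 0% for GM against CTRL, 0.337% for PIO against CTRL, 1.32% for PIO+GM against GM and 0% for PIO+GM against PIO. Replicate 3 of PIO+GM bore on these shares: without it the share was 0.0485% for PIO+GM against GM (8 genes in place of 216) and 1.3% for PIO against CTRL (215 genes in place of 55). At 24 h it was 0.0123%, 0.153%, 0.11% and 0.0735% in the same order. At an unadjusted p under 0.05 there were 2 members for PIO against CTRL at 6 h (Fosl1 and Dusp1), where 15.2% of all genes were under it, and 1 for GM against CTRL at 24 h (Jun), where 1.67% were. In the other 6 comparisons 0 members were under it, against 1.49%, 25% and 3.06% of all genes for GM against CTRL, PIO+GM against GM and PIO+GM against PIO at 6 h, and 9.93%, 7.47% and 2.59% for PIO against CTRL, PIO+GM against GM and PIO+GM against PIO at 24 h. The test of whether pioglitazone acted differently with and without gentamicin also called 0 members at 6 h and 0 at 24 h (0% of all genes at both times), and 0 members had an unadjusted p under 0.05 (1.8% and 1.21% of all genes). The 4 tests of whether a drug difference changed between the times likewise called 0 members (0% of all genes), and 0 had an unadjusted p under 0.05, against 0.766% of all genes for GM against CTRL, 4.38% for PIO against CTRL, 4.06% for PIO+GM against GM and 1.51% for PIO+GM against PIO.

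Gentamicin was set against CTRL first. At 6 h, log2 fold changes of the 10 genes lay between -0.53 and 0.01 with a median of -0.30 (about 0 over all genes), and 9 were negative. The median was 0.01 without CTRL replicate 2, so that its direction rested on that library. Fos had 40.8, 59.9 and 59.2 CPM in GM at 6 h, inside the range of CTRL. At 24 h the values lay between -0.16 and 0.93 with a median of 0.27 (about 0 over all genes), and 9 were positive. The median was 0.16 without GM replicate 1. Jun was the nearest to the threshold: its GM libraries at 24 h had 109, 120 and 80.8 CPM and its CTRL libraries 60.4, 83.1 and 44.5 CPM. They overlapped slightly, since the lowest GM library was below the highest CTRL library, and the log2 fold change was 0.72 (SE 0.28, unadjusted p = 0.019 by edgeR's quasi-likelihood test, adjusted p = 1). The 95% confidence intervals of the 10 genes reached from -1.69 to 0.87 at 6 h and from -1.05 to 2.63 at 24 h, the outermost bounds being those of Fosl1 in part, so differences within these bounds are not excluded.

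Pioglitazone against CTRL at 6 h gave 9 negative log2 fold changes of 10, with a median of -0.36 (-0.77 to -0.18 with 1 library left out; about 0 over all genes), and the lowest value was that of Fosl1. Its PIO libraries had 9.03, 10.8 and 5.49 CPM and its CTRL libraries 17.4, 35.6 and 12.4 CPM, so that all PIO libraries were below all CTRL libraries. The log2 fold change was -1.37 (SE 0.57, unadjusted p = 0.0259 by edgeR's quasi-likelihood test, adjusted p = 0.267), and -0.83 without CTRL replicate 2 (adjusted p = 0.561). Jun also did not overlap, with 67.2, 64.4 and 97.5 CPM in PIO and 105, 136 and 98.0 CPM in CTRL, and a log2 fold change of -0.56 (SE 0.28, adjusted p = 0.349). The highest PIO and the lowest CTRL library of Jun were nearly equal. These were the 2 members without overlap in the lower direction, which 6.73% of all genes showed. Dusp1 had 16.0, 11.7 and 20.2 CPM in PIO and a log2 fold change of -0.58 (SE 0.27, unadjusted p = 0.0446, adjusted p = 0.318), and its libraries overlapped those of CTRL. The value of Dusp1 was -0.88 without CTRL replicate 3 and -0.40 without CTRL replicate 2. At 24 h the 10 values lay between -0.57 and 0.28, with 6 positive and a median of 0.09. PIO and GM share the CTRL libraries, so the directions of their values at one time are not independent.

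Pioglitazone with gentamicin was set against gentamicin alone and against pioglitazone alone. Against GM at 6 h, log2 fold changes lay between -0.55 (Junb) and 0.80 (Egr1), 8 of 10 were negative and the median was -0.24 (-0.02 over all genes, and -0.57 for the members without PIO+GM replicate 1). Egr1 had 78.3, 86.2 and 26.7 CPM in PIO+GM and 25.1, 37.5 and 47.4 CPM in GM. The first 2 PIO+GM libraries were above all GM libraries and replicate 3 was among them. The log2 fold change of Egr1 was 0.80 (SE 0.39, unadjusted p = 0.0556 by edgeR's quasi-likelihood test, adjusted p = 0.209), and 1.17 without replicate 3 (unadjusted p = 0.00447, adjusted p = 0.193). The median over the 10 genes was 0.19 without that library and 0.06 without GM replicate 3, so its direction rested on each of them. Against PIO at 6 h, 7 values were positive and the median was 0.26 (0.52 without replicate 3 and -0.06 without replicate 1), with none called.

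The unadjusted counts at 6 h also rested on PIO+GM replicate 3, which was below its group mean for all members. Without it, 4 members had an unadjusted p under 0.05 against PIO (4% of all genes): Fosl1 (1.09, with the library 0.58), Egr1 (0.86 and 0.49), Fosb (0.81 and 0.33) and Jun (0.59 and 0.31), all higher in PIO+GM. Against GM there were 2 (14.5% of all genes), Egr1 and Fosb (1.02, with the library 0.54). The test of whether pioglitazone acted differently with gentamicin at 6 h then had 3 (2.97% of all genes), Fosl1 (1.62, with the library 1.11), Fosb (1.18) and Egr1 (1.15), and a median of 0.69 in place of 0.31. PIO against CTRL at 6 h had 3 (16.9%; Fosl1, Dusp1 and Jun) and PIO+GM against GM at 24 h 1 (8.12%; Fosl1). For the tests of a change between the times there were 2 in GM against CTRL (0.813%; Fosl1 and Jun), 1 in PIO against CTRL (5.54%; Jun) and 2 in PIO+GM against GM (3.2%; Fosl1 and Fosb). After Benjamini-Hochberg adjustment edgeR's quasi-likelihood test called 0 members in all of these, with adjusted p-values of 0.0898 (Fosl1 in PIO against CTRL at 6 h) and above.

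At 24 h, PIO+GM against GM gave values between -1.30 (Fosl1) and 0.24 (Egr1), with 7 negative and a median of -0.10. The Fosl1 value rests on 17 counts in PIO+GM and 43 in GM, and its confidence interval reached from -3.04 to above 0. PIO+GM against PIO gave values between -0.31 and 0.44 with 8 positive. Dusp1 had 19.3, 16.9 and 17.8 CPM in PIO+GM and 14.2, 16.3 and 16.0 CPM in PIO at 24 h. It was the 1 member without overlap in the higher direction, which 4.1% of all genes showed, with a log2 fold change of 0.22.

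**Figure D4:**
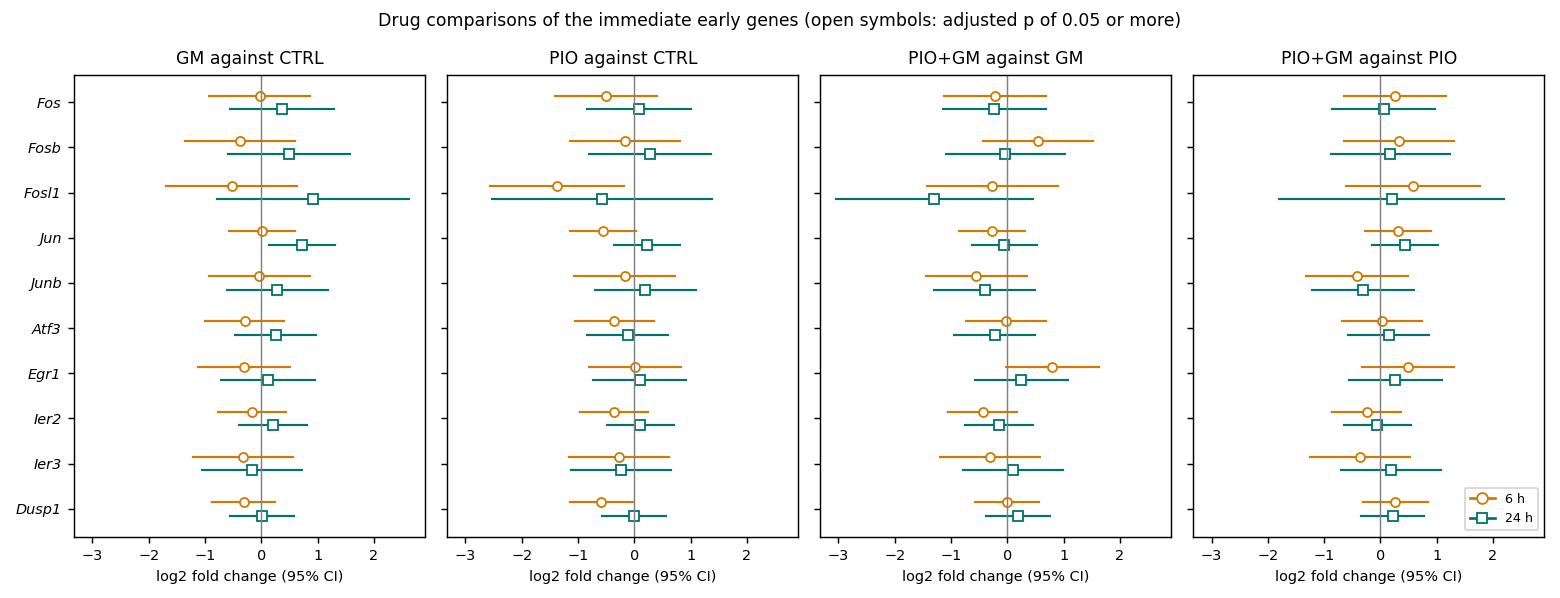
Log2 fold changes of the 10 genes with 95% confidence intervals in the 4 drug comparisons, at 6 h (circles) and 24 h (squares); open symbols have an adjusted p of 0.05 or more. All symbols are open, and the interval of Fosl1 is the widest at 24 h, reaching 2.63 in GM against CTRL.

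Other genes of the pathway were read from 5 lists, whose counts stand against 13.2%, 11.7%, 15.8% and 17% of all genes called lower over time in CTRL, GM, PIO and PIO+GM. Of 43 tested genes on a list of other immediate early and primary response genes, 24 were called lower and 0 higher over time in CTRL (median log2 fold change -1.02), 16 and 0 in GM (-0.68), 14 and 1 in PIO (-0.70) and 20 and 1 in PIO+GM (-0.80). Hbegf, which encodes a ligand of the EGF receptor, had 49.2 to 108 CPM at 6 h and 6.80 to 11.7 CPM at 24 h in CTRL, with log2 fold changes of -2.84 (SE 0.41), -2.35, -2.65 and -2.72 in the 4 treatments. Mcl1, an anti-apoptotic BCL2 family gene, fell in all 4 with log2 fold changes of -0.77, -0.67, -0.76 and -0.80. Hbegf had no overlap between the times in any treatment.

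Among 15 feedback regulators of MAP kinase signalling, 6, 5, 4 and 6 were called lower and 0 higher over time in CTRL, GM, PIO and PIO+GM (medians -0.44, -0.38, -0.36 and -0.60). Dusp5, a phosphatase of ERK, fell in all 4 treatments, with log2 fold changes between -2.37 and -2.68, as did Dusp4, with -1.72, -1.70, -1.31 and -2.11. Dusp5 in CTRL went from 20.3 to 31.5 CPM at 6 h to 3.14 to 4.74 CPM at 24 h. Of 26 signalling genes upstream of the class, 5, 3, 5 and 8 were lower and 3, 2, 2 and 5 higher. The 3 lower in GM were near the share of all genes, and the counts of higher ones were below that share in CTRL, GM and PIO and near it in PIO+GM. Mapk3, the gene of ERK1, was among the higher ones (0.80, 0.78, 1.07 and 1.51). Of 18 tested SRF, TCF, CREB and ATF factors, 5, 4, 4 and 8 were lower and 0, 0, 1 and 1 higher, and Atf4, an activator of Atf3, fell in all 4 treatments (-1.77, -1.31, -1.46 and -1.34).

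Of 19 tested genes listed as AP-1 targets, 11, 10, 11 and 9 were called lower over time and 1, 0, 0 and 0 higher, with median log2 fold changes of -1.39, -1.51, -2.21 and -1.63. Sprr1a, an epithelial and regeneration-associated gene, fell in all 4 treatments, with log2 fold changes of -4.77, -3.69, -4.31 and -3.32. Its libraries in CTRL had 5.90 to 17.0 CPM at 6 h and 0.176 to 0.698 CPM at 24 h. Plaur, the urokinase receptor gene, also fell in each (-3.21, -2.80, -2.79 and -3.34), and so did Timp1, an inhibitor of matrix metalloproteinases (-2.70, -2.39, -2.83 and -3.09). In the drug comparisons at 6 h, Plau, the urokinase gene, fell by 2.12 (SE 0.32, adjusted p = 0.00665 by edgeR's quasi-likelihood test) in PIO against CTRL and by 1.83 (SE 0.31, adjusted p = 0.00977) in PIO+GM against GM. Its PIO libraries had 3.59 to 6.35 CPM and its CTRL libraries 16.8 to 34.7 CPM. In PIO+GM against GM, Vim fell by 0.88 (adjusted p = 0.0412) and Mapk3 by 0.95 (adjusted p = 0.0332), while Mapk8, the gene of the kinase JNK1, rose by 0.62 (adjusted p = 0.042). All calls in PIO+GM against GM used replicate 3 of PIO+GM, and without it none of these genes passed, with log2 fold changes of -1.70 for Plau (adjusted p = 0.0799), -0.70 for Vim (adjusted p = 0.193), -0.82 for Mapk3 (adjusted p = 0.154) and 0.55 for Mapk8 (adjusted p = 0.181). The mesenchyme marker Pdgfra fell in the same comparisons as Plau, by 0.81 (adjusted p = 0.0142) in PIO against CTRL and by 0.82 (adjusted p = 0.00834) in PIO+GM against GM, where it was -0.77 (adjusted p = 0.078) without that library. In PIO against CTRL, Plau and Pdgfra kept their calls without it (-2.12 and -0.80), and Vim (-0.81, adjusted p = 0.0391) and Trib1 (-0.98, adjusted p = 0.0325) also passed. It was the only called marker of the 8 classes in these 2 comparisons with all libraries (1 of 8 mesenchyme markers), and its part in the falls of Plau and Vim was not tested. With all libraries, no other gene of the 5 lists was called by edgeR's test in a drug comparison.

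The members differed in how closely they followed each other. Across the 24 libraries, the correlation of log2 CPM with the mean of the 10 genes was 0.933 for Fos, 0.931 for Atf3, 0.922 for Fosb, 0.916 for Fosl1 and 0.828 for Egr1 (Pearson's r). It was lower for Junb (0.666), Dusp1 (0.651), Ier3 (0.646), Jun (0.625) and Ier2 (0.404). Each gene is itself part of that mean, and the libraries share the difference between the times, so these values are a description. Outside the 10, the genes most like their mean were Zfp36 (0.954), which encodes a protein that destabilizes mRNAs, Plk3 (0.941), Sbno2 (0.941), Sfn (0.937) and Baiap2 (0.933). Those most like Fos alone were Zfp36 (0.923), the nuclear receptor gene Nr4a1 (0.909) and Vcl (0.884).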

How the data were processed

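The authors mapped reads of stranded total RNA libraries with STAR (build mm10 per the processing notes) and deposited, without normalization, the counts of reads starting in any RefSeq exon of a gene, made with QuasR. Strand use and the handling of multi-mapped reads are not given in the sources used here. Of 24454 Entrez identifiers, 24374 matched a symbol. Here the counts of all 24 libraries were fitted in R 4.3.3 with edgeR 4.0.16 (TMM, filterByExpr, 1 mean per group, quasi-likelihood test, common biological coefficient of variation 0.225), and p-values were adjusted over 16317 genes by the Benjamini-Hochberg method, with a threshold of 0.05. CPM use TMM factors (0.96 to 1.04), log2 CPM a prior count of 2, and RPKM the deposited gene lengths. DESeq2 1.42.0 and limma-voom (limma 3.58.1) were alternatives, and the procedure was tested on simulated data. Named genes are the 10 members and, per list and comparison, at most the 5 called genes of lowest p. Genes resembling the members are the 5 with the highest Pearson correlation with their mean and the 3 with the highest correlation with Fos. Members and lists were chosen with earlier results of these data known. Gene positions and promoters are from RefSeq (GRCm38.p6) and exon overlaps from GENCODE vM21. Library totals are given with the results.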

Additional observations from a re-analysis of the deposited data

How the results depend on the processing

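Of the counts of members called in 18 comparisons, 174 of 176 values under 10 other settings stayed within 1.5 times the count reported. The 2 others were PIO+GM against GM at 6 h, with 1 member (Egr1, log2 fold change 1.11, adjusted p = 0.0441 by edgeR's quasi-likelihood test) after removal of a GC trend together with the replicate block, and 24 h against 6 h in PIO+GM, with 2 members (Fosb and Fosl1) when the 6 libraries compared were fitted alone. The cause was not tested. Most of the 18 comparisons, namely the drug comparisons and the tests of differences, had a reported count of 0, and a count that stayed 0 was taken as kept. Leaving out each library in turn gave 3 to 6 members for 24 h against 6 h in CTRL, 1 to 3 in GM, 2 to 3 in PIO and 2 to 5 in PIO+GM, and 0 to 1 for PIO+GM against GM at 6 h, where the 1 was Ier2 (-0.86, adjusted p = 0.0364) without PIO+GM replicate 1. In the other 13 comparisons the count remained 0. Fosl1 in all 4 treatments and Fosb in CTRL, PIO and PIO+GM kept their calls in all 24 of these fits. Single members were followed for the 20 values with an unadjusted p under 0.05 by edgeR's quasi-likelihood test in the reported fit. Of 675 alternatives, 612 kept direction and side of the threshold, 33 lost the call, 30 gained it and 0 reversed. Values chosen by a low p are less prone to reverse. Atf3 in GM was called under 7 settings (adjusted p 0.0255 to 0.0481). With a library left out, the median log2 fold change of the members at 24 h ranged from -0.02 to 0.19 in PIO against CTRL, from -0.33 to 0.02 in PIO+GM against GM and from -0.07 to 0.31 in PIO+GM against PIO. A minimum of 10 counts in every library removed Fosl1 from testing. Fos in CTRL and Atf3 in GM were then called, so equal counts can hold different members.

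The labels number the replicates of every group alike. Deviations from group means correlated by 0.113 on average between same-numbered libraries at 6 h (-0.305 to 0.684) and by 0.38 at 24 h (-0.025 to 0.723), against -0.055 and -0.182 between other pairs, and 8 of 12 libraries at each time correlated best with their own number. Each group was centred on its own mean, so a positive average for same-numbered pairs brings a negative one for the others. The contrast with other pairs therefore adds nothing. The positive averages are a hint of pairing from the data and were not tested. Since the labels name no shared litter, batch or day and some same-numbered pairs correlated negatively, the block was kept as an alternative. With the replicate block, the counts over time were 5 in CTRL (adding Fos, adjusted p = 0.0383), 2 in GM, 3 in PIO and 4 in PIO+GM, and 0 in each drug comparison. The differences between times were not run with only the libraries compared. Depth limits Fosl1 at 24 h, where a prior count of 0.5 in place of 2 moved its mean log2 CPM in PIO from -0.97 to -1.34.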
